A study of Mus musculus with 49 samples.

Results

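The comparison described here sets rTg4510 mice, which express mutant human tau, against tTA mice in the pyramidal cell layer of CA1, a field of the hippocampus. It covers the CA1 arrays labelled Tg4510 (5) and TTA alone (5), which is 10 of the 49 arrays of the series, and all 22626 probe sets that are not array controls. The 6 CA1 arrays of double-negative (DN) mice serve for reference levels, given for some genes only, and for the estimate of the spread. Each array held labeled RNA of 1 female mouse of 6.1 months, cut out of the layer with a laser under the microscope (laser capture). The rTg4510 mice carried a pair of transgenes: the tetracycline-controlled transactivator tTA under the promoter of Camk2a, a kinase gene of forebrain excitatory neurons, and a responder that puts P301L mutant human tau under tTA control. tTA mice carried the transactivator alone and DN mice neither transgene, and all were littermates from crosses of tTA breeders with tau breeders of another inbred strain, FVB/N. Because tTA was present in both groups, its effect cancels where it simply adds to that of tau, and whether it does was not tested. Mutant tau and the insertion of its transgene cannot be told apart.

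Tau is a microtubule-binding protein of axons that gathers into filaments in a family of dementias. Pyramidal neurons of CA1 are excitatory cells that send the main output of the hippocampus. Their spines hold a dense machinery of calcium-bound calmodulin, protein kinases and small G proteins that sets synaptic strength, and the layer also contains inhibitory interneurons, glia and blood vessels.

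All levels and differences are log2 values, so that 1 unit stands for a 2-fold change. Array values are listed in the order of mouse numbers: mouse4535, mouse4549, mouse4600, mouse4653 and mouse4666 for rTg4510, and mouse4570, mouse4580, mouse4592, mouse4626 and mouse4637 for tTA. A gene is called higher or lower at a limma adjusted p below 0.05, and a level is called dim where its group mean lies under 5.021, which is the median of the probe set means in CA1. The tTA array of mouse4592 stood apart from the other tTA arrays. On the second principal component of the 16 CA1 arrays it lay at -61.1 and the other tTA arrays between -19.99 and -10.39. It also had the lowest limma array weight, 0.355. Weights reached 1.08 in tTA, ran from 0.477 to 1.02 in rTg4510 and from 1.31 to 1.95 in DN arrays. DN arrays thus varied less about their mean than most of those compared, and the quoted SEs pool them in. On the first component the rTg4510 arrays ran from 19.1 (mouse4600) and 24.4 (mouse4549) to 53.6 (mouse4535), against -5.83 to 13.7 in tTA. The control probe sets of Actb, whose 3-prime minus 5-prime signal rises as RNA degrades, gave -0.477 ± 0.068 (SD, n = 5) in rTg4510 and -0.698 ± 0.163 in tTA (exact permutation test, two-sided p = 0.0317, not below 0.05 without rTg4510 mouse4653 or mouse4666 or tTA mouse4637, each 0.0556), and those of Gapdh gave 3.04 and 3.04 (p = 0.984). Their part in the results was not tested, and the counts with the Actb value as a covariate are given with the other settings.

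Altogether 1360 probe sets were higher and 1045 lower in rTg4510 than in tTA mice, 10.6% of those tested (6.01% higher and 4.62% lower). With 1 probe set for each of 11807 named genes, 736 genes were higher and 637 lower, 11.6% of the named genes (6.23% and 5.4%). At least 2-fold changes were mostly rises: 373 of the called probe sets were higher and 102 lower by that much. The 5 rTg4510 and 5 tTA arrays did not overlap in 831 named genes, 7.04% of all (3.6% higher and 3.44% lower). Without the tTA array of mouse4592 the counts were 1265 and 979. Fitted without the DN arrays, 648 probe sets were higher and 408 lower. With arrays centred on their medians the majority turned, to 1197 higher and 1353 lower.

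**Figure D1:**
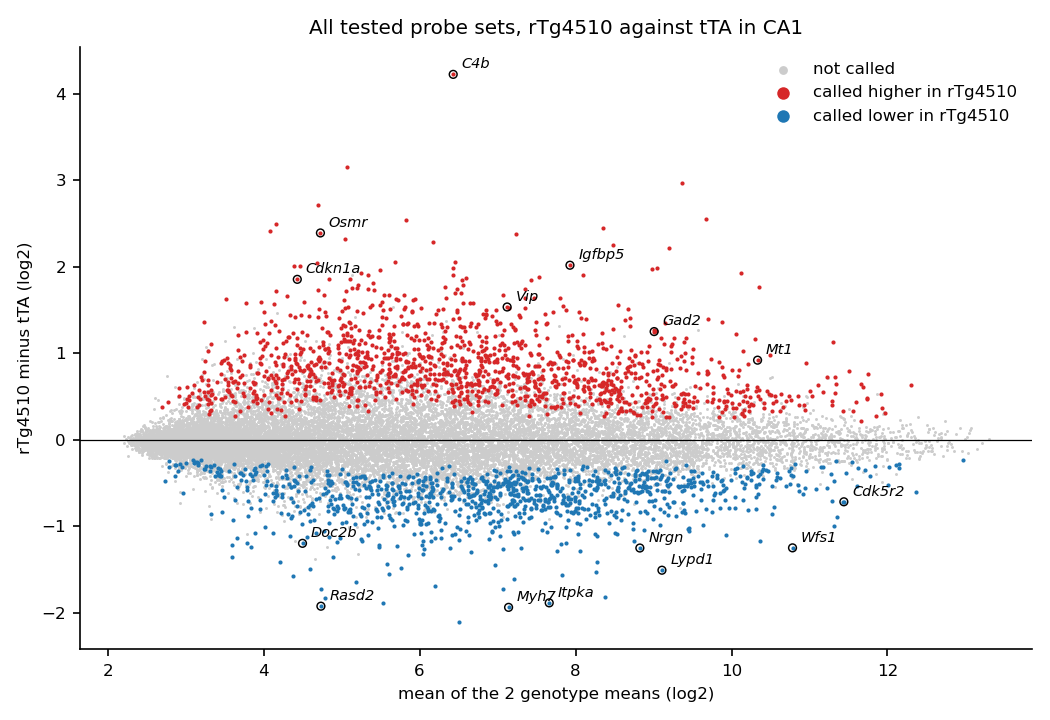
Each point is 1 of 22626 probe sets, with the mean of both genotype means (log2) on the horizontal axis and the difference rTg4510 minus tTA (log2) on the vertical axis. The 1360 called rises reach 4.22 (C4b), while the labelled falls in the plot end at -1.94 (Myh7). Over all named genes the lowest difference was -2.1.

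Most markers of CA1 pyramidal cells fell. Of 5 measured, Itpka, Pou3f1, Lefty1 and Wfs1 were lower and Dcn was higher, with a median difference of -1.48 against -0.04 over all named genes. The shares were 80% lower and 20% higher, from 5 genes only, against 5.4% and 6.23% of all named genes. Itpka encodes a kinase of dendritic spines that phosphorylates inositol trisphosphate. Its rTg4510 arrays read 7.49, 7.45, 6.51, 5.42 and 6.73 and its tTA arrays 8.06, 8.39, 8.74, 9.19 and 8.65, and the difference of -1.89 (SE 0.31, adjusted p = 0.00176) left no overlap, with the lowest rTg4510 value in mouse4653. Wfs1, an endoplasmic reticulum protein that marks the CA1 field, read 10.61, 10.45, 10.18, 9.57 and 9.98 in rTg4510 and 11.05, 11.41, 11.40, 11.79 and 11.39 in tTA, with DN arrays between 12.15 and 12.30. The rTg4510 group lay below every tTA array and the tTA group below every DN array, and Wfs1 fell by 1.25 (SE 0.16, adjusted p = 0.000381). The mean level over the list ran from 6.07 to 7.33 in rTg4510, from 7.55 to 8.31 in tTA and from 8.07 to 8.33 in DN arrays. In such captures fewer cells of a type and less RNA per cell cannot be told apart. Dcn, a proteoglycan gene used as a CA1 marker and also known from fibroblasts, was dim in both groups and higher by 0.77 (adjusted p = 0.0163), with rTg4510 mouse4549 level with the highest tTA array. That call was lost without the DN arrays. Of 6 CA2 markers 0 were called by limma (1 at an unadjusted p below 0.05) or by the least significant difference test of the study's methods, and Pcp4, a calmodulin-binding peptide of CA2, lay between 10.70 and 12.19 in rTg4510 and between 8.54 and 12.11 in tTA arrays. Of 6 CA3 markers 2 were higher, among them the adhesion gene Nectin3 at 1.24 (SE 0.26). So were 2 of 6 markers of the subiculum, the corepressor gene Tle4 at 0.42 and the fibronectin gene Fn1 at 0.54. For Tle4 DN mice stood at 9.20 ± 0.09 (SD, n = 6), rTg4510 at 9.11 ± 0.10 and tTA at 8.68 ± 0.10. Of 8 dentate granule markers 0 were called by either test (3 at an unadjusted p below 0.05). Such small numbers cannot be set against the 11.6% of all named genes called (6.23% higher).

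The 12 largest falls were sought among called genes outside the glial lists whose groups did not overlap and whose brighter group was not dim. They joined signaling, excitability and secreted factors. Rasd2, a small G protein also named Rhes, stood in the rTg4510 arrays at 4.63, 3.50, 3.51, 3.47 and 3.76. The tTA arrays stood at 5.06, 5.65, 6.80, 6.0 and 4.97, all above the highest rTg4510 array, mouse4535, and mouse4592 was the highest. Its difference was -1.92 (SE 0.30, 3.8-fold, adjusted p = 0.00111), or -1.65 without tTA mouse4592. Its rTg4510 level was dim, and DN mice were at 6.57 ± 0.22 (SD, n = 6). Htr5b, a serotonin receptor gene, read 3.91, 5.20, 3.66, 3.06 and 3.55 in rTg4510 and 5.51, 5.73, 5.50, 6.51 and 5.27 in tTA arrays. The rTg4510 array of mouse4549 came close to the lowest tTA array, mouse4637, and the other 4 lay under 5.021, with a difference of -1.83 (SE 0.31, adjusted p = 0.00196). Myh7, the slow myosin heavy chain best known from heart muscle, was at 6.39, 7.46, 5.51, 5.50 and 6.01 in rTg4510 and 7.53, 8.33, 8.13, 8.94 and 7.62 in tTA arrays. It fell by 1.94 (SE 0.32, adjusted p = 0.00175), and its other probe set gave -1.17. Lypd1, which encodes a membrane-anchored modulator of nicotinic receptors, fell by 1.51 (SE 0.24) from 9.86 ± 0.21 to 8.35 ± 0.66. Scn3b, a beta subunit of sodium channels, fell by 1.41 (SE 0.22), with -1.72 in its other probe set. For Pou3f1, a transcription factor of CA1, the difference was -1.82 (SE 0.34) in the probe set used and -0.09 in the other, which was not called.

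Some of these genes stood at different levels in the reference mice. Tac2, the precursor of neurokinin B, read 6.0, 5.76, 4.49, 5.30 and 5.25 in rTg4510, 6.46, 7.02, 7.08, 7.17 and 7.50 in tTA and 4.13 ± 0.41 (SD, n = 6) in DN arrays. The tTA arrays were thus the highest of the 3 genotypes, and the difference between rTg4510 and tTA was -1.69 (SE 0.26, adjusted p = 0.00122). Bace2, a protease related to the beta-secretase of amyloid precursor protein, read 3.89, 4.09, 3.83, 3.71 and 3.74 in rTg4510 and 4.53, 6.0, 5.86, 4.92 and 5.41 in tTA arrays, with DN arrays between 3.59 and 3.82. Its rTg4510 and DN arrays overlapped and both were dim, and rTg4510 lay 1.49 below tTA (SE 0.21). Sema3a, a repulsive guidance cue for axons, was at 4.36 ± 0.40 in rTg4510, 6.01 ± 0.59 in tTA and 5.04 ± 0.16 (SD, n = 6) in DN mice, with a difference of -1.64 and values of -0.10 and -0.54 in its other probe sets, which were not called. Chtf8, a factor of DNA replication, was at 6.24 ± 0.79, 7.68 ± 0.42 and 7.10 ± 0.41 (SD, n = 6). Lefty1, an inhibitor of nodal signaling, was at 5.02 ± 0.53, 6.50 ± 0.54 and 6.37 ± 0.21 (SD, n = 6), with its DN arrays inside the tTA range. The fall of Lefty1 rested on the dim rTg4510 level.

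**Figure D2:**
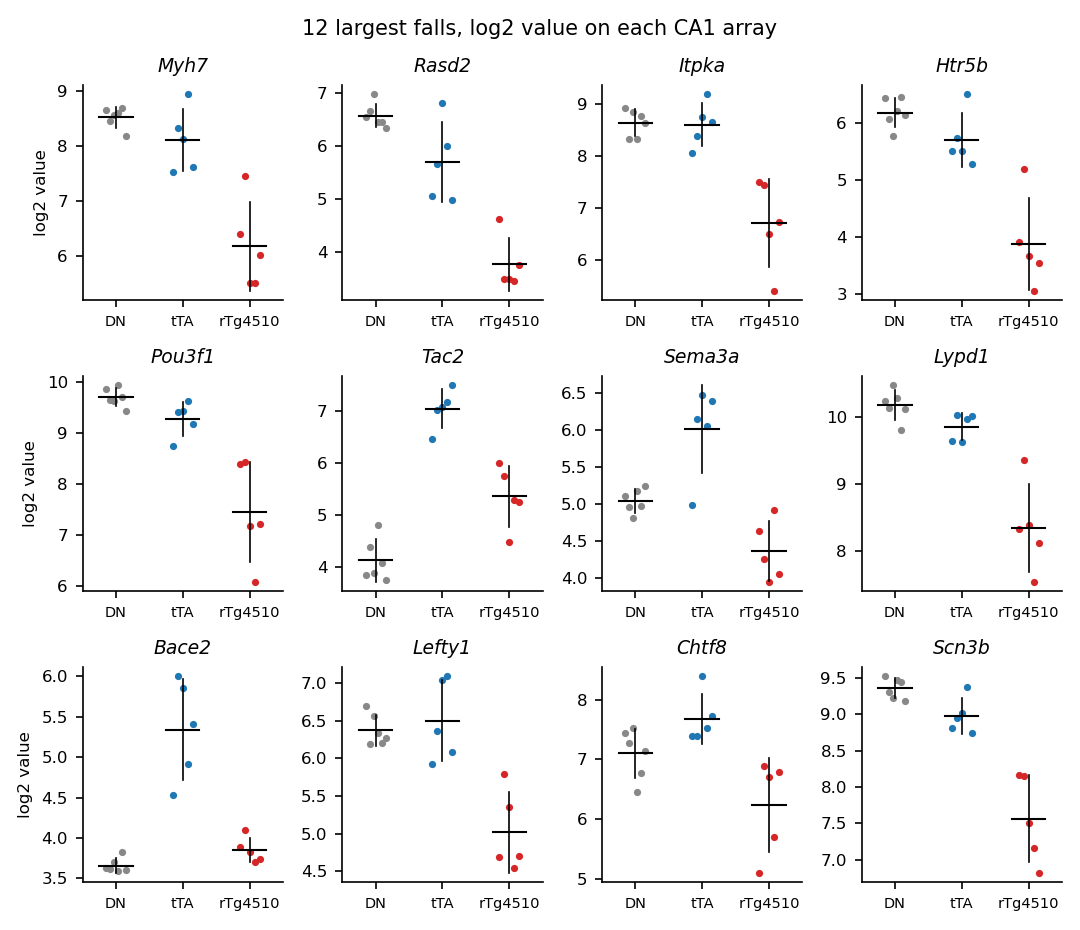
Log2 value on each CA1 array (vertical axis) by genotype (horizontal axis). Bars give mean ± SD over 6 DN, 5 tTA and 5 rTg4510 mice. Shown are the 12 largest falls among called genes outside the glial lists. Only genes with groups that do not overlap and a brighter group that is not dim were eligible. By the choice of genes the rTg4510 points lie below every tTA point in each panel. In the panels of Tac2 and Bace2 the DN mean (4.13 and 3.66) lies below the rTg4510 mean.

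Calcium and calmodulin signaling held many of the other falls. Of 46 measured genes 14 were lower (30.4%) and 2 higher (4.35%), against 5.4% and 6.23% of all named genes, and the median difference was -0.19. Kinases made up 7 of the 14: beside Itpka these were Camk2b, Camkv, Prkcb, Dapk1, Camk2a and Prkcz. Nrgn, or neurogranin, which holds calmodulin near the membrane of spines, read 8.03, 8.75, 8.49, 7.71 and 8.01 in rTg4510 and 9.26, 9.72, 9.52, 9.39 and 9.37 in tTA arrays. No rTg4510 array reached the lowest tTA value, and the difference was -1.25 (SE 0.18, 2.38-fold, adjusted p = 0.000684). Camk2b, the beta chain of the calmodulin-dependent kinase of synaptic plasticity, read 8.45, 9.26, 9.27, 9.03 and 8.90 in rTg4510 and 9.54, 9.94, 9.94, 9.85 and 9.89 in tTA arrays, which did not overlap. It fell by 0.85 (SE 0.15), and the pseudokinase Camkv fell by 0.83 (SE 0.18), with rTg4510 mouse4535 lowest in both. Ppp3r1, the regulatory subunit of calcineurin, fell by 0.64 and stood at -0.20 and -0.18 in its other probe sets. Of the calcineurin inhibitors, Rcan1 was at -0.49 (adjusted p = 0.0202) and Rcan2 at 0.88 (SE 0.17, adjusted p = 0.00387), so members of 1 family were called in opposite directions. Itpkb, the sister kinase of Itpka, was higher by 1.21 (SE 0.26, adjusted p = 0.00767) from a dim tTA level. The number of lower genes was 8 without rTg4510 mouse4535, 9 without mouse4653, 6 without mouse4666 and 5 without the DN arrays. Rcan1 was not called without rTg4510 mouse4535 (adjusted p = 0.0528) or mouse4666 (0.0577) or tTA mouse4626 (0.0518), and Prkcb was not called without rTg4510 mouse4666 (0.0524). Prkcz was not called when tTA mouse4580, mouse4592 or mouse4626 or any rTg4510 array but mouse4549 was left out (adjusted p from 0.0662 to 0.104), nor in the fit of all 49 arrays with the mouse as a replicate block (0.0906). The DN arrays were needed for the calls of Rcan1, Ppp3r1, Itpkb, Prkcb, Dapk1, Camk2a and Prkcz.

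G proteins, their regulators and Ras relatives were called in both directions. Of 50 genes 10 were lower and 6 higher (20% and 12%, against 5.4% and 6.23% of all named genes). Among 16 of the Ras family 5 were lower (Rasd2, Rasl10a, Rasgrf1, Rasgrp1 and Rap2a) and Rasgrf2 was higher. Rasl10a, a Ras-like protein of neurons, read 4.61, 4.91, 4.11, 3.74 and 3.85 in rTg4510 and 5.06, 5.40, 5.14, 5.69 and 5.22 in tTA arrays, a difference of -1.06 (SE 0.19) with dim rTg4510 levels and DN mice at 6.24 ± 0.16 (SD, n = 6). Rasgrf1 and Rasgrp1, exchange factors that switch Ras on in response to calcium, fell by 0.67 (SE 0.11) and 0.58 (SE 0.12). For Rasgrf1 both other probe sets were of the same sign (-0.56 and -0.97). Of 14 RGS genes, which end G protein signals, 4 were higher and 1 lower. Rgs7, the partner of the G protein chain made by Gnb5, read 4.99, 6.21, 5.83, 5.75 and 6.13 in rTg4510 and 6.85, 6.70, 6.92, 6.85 and 6.29 in tTA arrays, and fell by 0.94 (SE 0.20). Gnb5 itself was at -0.67 (SE 0.15) and was not called without the DN arrays. The RGS genes that were higher were Rgs17 (0.86), Rgs4 (1.01), Rgs10 (1.06) and Rgs20 (1.20, SE 0.23). Rgs4 read 8.53, 7.56, 9.04, 9.08 and 8.88 in rTg4510 arrays, with mouse4549 at the level of the tTA arrays, and 8.67 ± 0.27 (SD, n = 6) in DN mice, and its call too was lost without the DN arrays. Without rTg4510 mouse4600 or without tTA mouse4592 the higher genes numbered 11 each, and with the replicate block over all 49 arrays 10. Without the DN arrays 3 were higher and 6 lower, with Rap2a and Rasgrf2 no longer called, and Rasgrf2 was also lost without rTg4510 mouse4666 (adjusted p = 0.0514). Of 20 G protein subunits 4 were lower and 1 higher, with Gng13, a gamma subunit, at -0.73 (SE 0.15). Gng13 was highest in tTA mice, at 9.74 ± 0.35 against 9.01 ± 0.23 in rTg4510 and 8.70 ± 0.16 (SD, n = 6) in DN mice.

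MAP kinase genes were called lower in 5 and higher in 2 of 35 (14.3% and 5.71%, against 5.4% and 6.23% of all named genes), so that the higher share was at the background. The 4 largest differences were those of phosphatases that switch these kinases off. Dusp6 fell by 0.87 (SE 0.18) and Dusp7 by 0.81 (SE 0.14), while Dusp16 was higher by 1.43 (SE 0.20, adjusted p = 0.000596) and Dusp26 by 1.14 (SE 0.18). For Dusp16 the rTg4510 arrays read 6.27, 6.21, 6.14, 7.04 and 6.73 and the tTA arrays 5.45, 4.67, 5.17, 4.68 and 5.24. Its groups did not overlap, and DN arrays lay between 4.26 and 4.99. The lower count was 3 without rTg4510 mouse4535, tTA mouse4580 or tTA mouse4626, and 2 without the DN arrays.

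Among potassium channel genes most falls were of auxiliary subunits. Of 10 auxiliary subunits 4 were lower, of 15 pore-forming Kv subunits 1, and over all 39 potassium channel genes 5 were lower and 2 higher (12.8% and 5.13%, against 5.4% and 6.23% of all named genes). Kcnab1, a cytoplasmic beta subunit, read 7.11, 7.18, 6.47, 5.33 and 6.10 in rTg4510 and 7.50, 7.83, 7.40, 8.02 and 7.76 in tTA arrays. Its groups did not overlap and DN mice were higher still at 8.42 ± 0.29 (SD, n = 6), and the difference between rTg4510 and tTA was -1.26 (SE 0.28, adjusted p = 0.00836). Kcnip4, which binds A-type channels, was at -0.70 (SE 0.15) and -0.57 in its other probe set. Kcnh7, a pore-forming subunit of the ERG type, was at -1.22 (SE 0.29), and both calls were lost without the DN arrays. Kcnip2 (adjusted p = 0.0271) and Kcnab2 (adjusted p = 0.0377) lost their calls without rTg4510 mouse4653 (0.0553 and 0.0923), rTg4510 mouse4666 (0.0736 and 0.0729) or tTA mouse4580 (0.0669 and 0.0528), and the count of lower genes was then 3. Kcnip2 also lost it without tTA mouse4592 (0.0586), and Kcnab2 without rTg4510 mouse4535 (0.0766) or tTA mouse4626 (0.094) or mouse4637 (0.0713) and with the replicate block (0.0712). Without the DN arrays 1 potassium channel gene was lower. Among 24 sodium, calcium and HCN channel genes 4 were lower (16.7%, against 5.4%) and 1 higher (4.17%, near the 6.23% of all named genes), with 3 higher without rTg4510 mouse4549. Besides Scn3b these were Fgf14, described with the transgene below, the calcium channel genes Cacnb1 (-0.85) and Cacna1h (-0.84), and the higher Cacna2d2 (0.87). The other probe sets gave -0.95 and -0.13 for Cacnb1 and -0.02 and 0.42 for Cacna2d2, of which only that at -0.95 was called. Cacnb1, Cacna1h and Cacna2d2 were not called without rTg4510 mouse4666 (adjusted p = 0.0758, 0.073 and 0.0515) or without the DN arrays. Cacnb1 and Cacna1h also lost their calls without rTg4510 mouse4535 (0.0719 and 0.0941) or mouse4653 (0.0613 and 0.0673), or tTA mouse4580 (0.0554 and 0.0866) or mouse4626 (0.066 and 0.0688), and Cacna1h without rTg4510 mouse4549 (0.0775) or tTA mouse4570 (0.0733) or mouse4637 (0.0719), and the count of lower genes was 2 in 5 of these fits.

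Of 11 serotonin receptor genes 4 were lower and 1 higher (36.4% and 9.09%, against 5.4% and 6.23% of all named genes). Of 5 dopamine and adrenergic and 7 acetylcholine receptor genes 0 were called by limma (1 and 2 at an unadjusted p below 0.05), numbers too small to set against 11.6% of all named genes. Htr1a, an inhibitory receptor of pyramidal neurons, read 5.52, 5.69, 5.69, 4.98 and 4.99 in rTg4510 and 5.66, 6.35, 5.87, 7.02 and 6.65 in tTA arrays. The groups overlapped in 1 tTA array, mouse4570, and DN mice lay far above both at 8.26 ± 0.19 (SD, n = 6), with a difference between rTg4510 and tTA of -0.94 (SE 0.23, adjusted p = 0.0136) that was not called without the DN arrays. Htr1b (-0.82, adjusted p = 0.0265) lost its call without rTg4510 mouse4653 (0.0675) or mouse4666 (0.0741) or tTA mouse4580 (0.0647) or mouse4626 (0.0648). Htr1f (-1.10, adjusted p = 0.0465) kept it only in the fits without rTg4510 mouse4549 or tTA mouse4570, with adjusted p from 0.0517 to 0.112 without any other array, and neither gene was called without the DN arrays. Htr3a, the ion channel receptor of interneurons, was dim in both groups, at 4.72, 3.54, 4.36, 4.49 and 4.12 in rTg4510 and 3.32, 3.16, 3.29, 3.16 and 3.39 in tTA arrays, and higher by 0.98 (SE 0.17). The cannabinoid receptor gene Cnr1 was higher by 0.90 (SE 0.22), a call lost without the DN arrays.

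Receptors of the main transmitters were called about as often as all named genes (11.6%). Of 14 glutamate receptor genes 1 was higher (7.14%) and 0 lower, and of 12 GABA and glycine receptor genes 1 was higher (8.33%) and 0 lower, in limma (3 and 0 lower at an unadjusted p below 0.05). The glutamate receptor was Gria4, an AMPA receptor subunit (1.0, adjusted p = 0.0364), which was not called without the DN arrays or without rTg4510 mouse4549, mouse4600, mouse4653 or mouse4666 or tTA mouse4580, mouse4592 or mouse4626 (0.0578 to 0.0746). Gabra2, an alpha chain of the GABA-A receptor, read 9.46, 9.60, 9.20, 9.21 and 9.40 in rTg4510 and 8.85, 8.57, 8.64, 9.01 and 8.88 in tTA arrays. It was higher by 0.58 (SE 0.10, adjusted p = 0.00208) with no overlap, and DN arrays lay between 9.51 and 9.73.

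Postsynaptic scaffold and adhesion genes were lower in 8 and higher in 2 of 32 (25% and 6.25%, against 5.4% and 6.23% of all named genes), with a median of -0.23. Homer2, which links glutamate receptors to calcium stores, read 7.80, 8.59, 8.04, 7.96 and 7.98 in rTg4510 and 8.80, 8.67, 8.77, 9.43 and 9.17 in tTA arrays. The rTg4510 array of mouse4549 came closest to the tTA group, and the difference was -0.89 (SE 0.17, adjusted p = 0.00408). Shank3, a master scaffold of the excitatory synapse, fell by 0.85 (SE 0.16), Cnih2, an auxiliary AMPA receptor protein, by 0.72 (SE 0.15) and Kalrn, an exchange factor of dendritic spines, by 0.52 (SE 0.11). For Cnih2 DN mice, at 9.06 ± 0.06 (SD, n = 6), lay nearer to rTg4510 (8.89 ± 0.40) than to tTA mice (9.61 ± 0.20). For Kalrn 1 other probe set gave -0.65 and the remaining one lay at 0 to the second decimal. In contrast Neto1, an auxiliary subunit of kainate receptors, read 9.50, 9.06, 9.22, 9.63 and 9.24 in rTg4510 and 9.04, 7.77, 6.54, 7.32 and 8.18 in tTA arrays, and was higher by 1.56 (SE 0.33, adjusted p = 0.0063). Its tTA arrays were widely spread, with mouse4592 lowest and mouse4570 just under the rTg4510 range, and without mouse4592 the difference was 1.25 (adjusted p = 0.00896). The adhesion gene Ncam2 was higher by 1.08 (SE 0.21). Without the DN arrays 4 genes were lower, and Cnih2 was not called, and without rTg4510 mouse4600 4 were higher.

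Synaptic vesicle genes were lower in 5 and higher in 1 of 41, together 14.6% against 11.6% of all named genes, with a median of 0.09. Doc2b, a calcium sensor of transmitter release, read 3.79, 4.40, 3.71, 3.29 and 4.31 in rTg4510, 4.27, 4.94, 5.07, 6.0 and 5.21 in tTA and 7.48 ± 0.19 (SD, n = 6) in DN arrays. It fell by 1.20 (SE 0.26) between tTA and rTg4510, where it was dim, with rTg4510 mouse4549 and mouse4666 above tTA mouse4570, and its other probe set gave -1.42. Syt5, a synaptotagmin, fell by 0.79 (SE 0.15). The lower count was 3 without rTg4510 mouse4666 and 2 without the DN arrays. Without rTg4510 mouse4535 5 were higher and 4 lower, with the replicate block 4 higher and 6 lower, and without tTA mouse4570 2 higher and 4 lower.

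Kinases and phosphatases that act on tau were lower in 6 (18.8%, against 5.4% of all named genes) and higher in 0 of 32 by limma (8 and 0 at an unadjusted p below 0.05), with a median of -0.14. Cdk5r2, an activator of the neuronal kinase Cdk5, read 10.99, 11.20, 11.24, 10.99 and 10.99 in rTg4510 and 11.61, 11.73, 12.03, 11.81 and 11.83 in tTA arrays. Its rTg4510 arrays spanned a narrow range, all below tTA and overlapping the DN arrays (11.11 and 11.35), and the difference from tTA was -0.72 (SE 0.09, adjusted p = 0.000295) and -0.35 in the other probe set. Mark2, a kinase that detaches tau from microtubules, fell by 1.04 (SE 0.17) but stood at -0.13 and -0.32 in its other probe sets, which were not called. The catalytic subunit of protein phosphatase 1, Ppp1ca, fell by 0.78 (SE 0.15) and Gsk3a, a glycogen synthase kinase, by 0.55 (SE 0.12, with overlapping groups). Cdk5 (adjusted p = 0.0394) and Cdk5r1 (adjusted p = 0.0478) lost their calls without any 1 of rTg4510 mouse4535 (0.0701 and 0.104) and mouse4653 (0.0756 and 0.106) and tTA mouse4570 (0.0757 and 0.0505), mouse4580 (0.0622 and 0.102), mouse4626 (0.075 and 0.103) and mouse4637 (0.0867 and 0.0788), and Cdk5r1 without rTg4510 mouse4666 (0.089). Both were lost without the DN arrays, and Cdk5 with the replicate block (0.0863). In the list of microtubule and motor genes 2 of 40 were lower and 0 higher by limma (6 and 3 at an unadjusted p below 0.05), below the 11.6% of all named genes. These were Map6 (adjusted p = 0.04), not called without rTg4510 mouse4549, mouse4653 or mouse4666 or tTA mouse4570, mouse4580, mouse4592 or mouse4626 (0.0586 to 0.0847) or with the replicate block (0.113), and Map4 (adjusted p = 0.0235), not called without rTg4510 mouse4535 (0.0528) or tTA mouse4592 (0.0511) or mouse4626 (0.0582), and neither was called without the DN arrays.

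**Figure D3:**
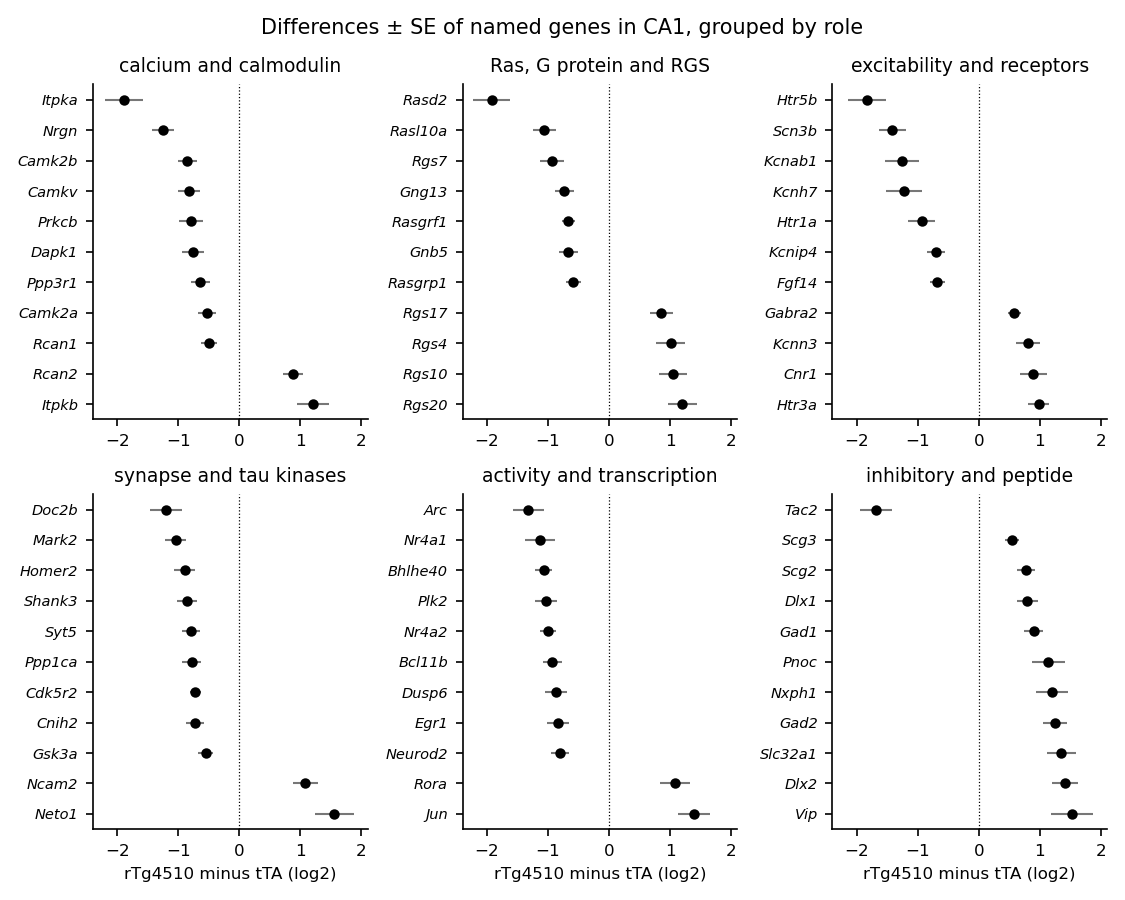
Difference rTg4510 minus tTA (log2, horizontal axes) of called genes in 6 groups by role, with points for the limma estimate and bars for its SE. Falls fill most of the first 5 panels, with RGS, RCAN and receptor relatives on both sides of 0. The inhibitory and peptide panel lies right of 0 except for Tac2 at -1.69. The genes shown were picked from those called, so the side they take follows in part from that choice. Of the interneuron markers 1 was called lower and of the peptide genes 2, and of these only Tac2 is shown.

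Transcription factors of neurons and genes that follow neuronal activity were lower more often than higher. Of 52 transcription factor genes 11 were lower (21.2%, against 5.4% of all named genes) and 3 higher (5.77%, near the 6.23% of all named genes). Bhlhe40, a repressor tied to the circadian clock, read 6.99, 7.10, 6.41, 6.27 and 6.53 in rTg4510 and 7.53, 7.72, 7.67, 8.01 and 7.70 in tTA arrays, with DN mice at 8.66 ± 0.09 (SD, n = 6). The 3 genotypes did not overlap, and the difference between rTg4510 and tTA was -1.07 (SE 0.14, adjusted p = 0.00044). Bcl11b, a zinc finger factor of projection neurons, fell by 0.93 (SE 0.15) and Neurod2, a driver of neuronal differentiation, by 0.80 (SE 0.14). Rora, a nuclear receptor, was higher by 1.08 (SE 0.25). The lower count was 7 without rTg4510 mouse4666, tTA mouse4580 or tTA mouse4626 and 5 without the DN arrays, and 5 genes were higher without rTg4510 mouse4549. Of 33 activity-dependent genes 7 were lower (21.2%) and 2 higher (6.06%), the latter again at the background. Arc, whose product acts at active synapses, read 5.28, 5.78, 6.0, 4.70 and 5.12 in rTg4510 and 6.82, 6.85, 6.98, 6.50 and 6.35 in tTA arrays, a difference of -1.32 (SE 0.26) with no overlap. Nr4a1 (-1.13), the kinase gene Plk2 (-1.04), Nr4a2 (-1.0, but -0.31 in its other probe set) and Egr1 (-0.84) were lower as well. Jun, a subunit of the factor AP-1, went the other way: its rTg4510 arrays read 8.80, 8.25, 8.90, 9.38 and 8.84, its tTA arrays 7.81, 7.55, 6.96, 7.68 and 7.22, and it was higher by 1.40 (SE 0.26, adjusted p = 0.00317).

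Genes of inhibitory neurons were among the neuronal genes that rose. Of 20 interneuron markers 9 were higher and 1 lower (45% and 5%, against 6.23% and 5.4% of all named genes), with mean levels over the list of 6.47 to 7.24 in rTg4510 and 6.01 to 6.51 in tTA arrays. Vip, a peptide of interneurons that inhibit other interneurons, read 8.96, 6.85, 7.15, 8.30 and 8.19 in rTg4510 and 5.87, 6.99, 5.81, 6.49 and 6.62 in tTA arrays. The rTg4510 array of mouse4549 fell within the tTA range, and the difference of 1.53 (SE 0.34, adjusted p = 0.00935) was not called without the DN arrays. Gad1, which makes GABA, read 10.37, 10.05, 10.29, 10.43 and 10.31 in rTg4510 and 9.83, 9.45, 9.31, 8.97 and 9.41 in tTA arrays, with no overlap. It was higher by 0.90 (SE 0.16, adjusted p = 0.0023). Of 21 peptide precursors and related genes 6 were higher (28.6%) and 2 lower (9.52%), and of 23 peptide receptors 1 was higher (4.35%), Ntsr2, a neurotensin receptor (0.85, SE 0.18). Pnoc, the precursor of nociceptin, was higher by 1.14 (SE 0.27), with rTg4510 mouse4600 inside the tTA range. The granins Scg2 (0.77) and Scg3 (0.54), proteins of dense-core vesicles, were higher too, and DN mice were at 8.44 ± 0.14 (SD, n = 6) for Scg2, with rTg4510 between 7.69 and 8.69 and tTA between 7.28 and 7.70. Of 28 genes of transmitter metabolism and transport 10 were higher and 3 lower (35.7% and 10.7%, against 6.23% and 5.4%). The zinc transporter Slc30a3, which loads zinc into glutamate vesicles, fell by 0.92 (SE 0.16), and the chloride importer Slc12a2 was higher by 0.88 (SE 0.15). Without the DN arrays the interneuron count was 5 higher, and the peptide and receptor count 4 higher.

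The 12 largest rises were taken outside the glial lists from called genes whose groups did not overlap and whose brighter group was not dim. Igfbp5, higher by 2.02, was left out because its groups overlapped. Most of the 12 were genes that are dim in tTA mice, 10 of 12. C3ar1, Lcp1, Bcl2a1a and Ccl6 are known mainly from immune cells, although the marker lists do not hold them. The study takes C4b, Gfap and Spp1 together as signs of changes in several cell types, microglia and astrocytes among them. The marker lists of other cells moved alongside: 14 of 22 microglia, 13 of 17 astrocyte, 7 of 13 oligodendrocyte, 6 of 16 endothelial and mural and 5 of 9 meningeal markers were higher and 0 lower in limma (at an unadjusted p below 0.05 the only lower one was 1 microglia gene), and 0 of 5 choroid plexus and 0 of 2 red blood cell markers were called by limma, the least significant difference test or at an unadjusted p below 0.05. The shares called higher ran from 37.5% (endothelial and mural) to 76.5% (astrocyte), against 6.23% of all named genes. The choroid plexus and red blood cell numbers are too small to set against the 11.6% of all named genes called. The oligodendrocyte count was 11 without tTA mouse4592. Mean list levels ran from 6.05 to 6.98 in rTg4510 and 5.18 to 5.47 in tTA arrays for microglia, and from 9.15 to 9.88 and 8.23 to 8.76 for astrocytes. Their part in the rises described here was not tested. C4b, a complement component, read 9.17, 7.62, 7.73, 9.19 and 9.0 in rTg4510 and 4.22, 4.34, 4.38, 4.26 and 4.40 in tTA arrays. Mouse4549 and mouse4600 were the lowest rTg4510 arrays, both far above every tTA array, and the difference was 4.22 (SE 0.26, 18.7-fold). Cdkn1a, the cell cycle inhibitor p21, read 6.14, 4.58, 5.40, 6.04 and 4.63 in rTg4510 and 3.35, 3.28, 3.43, 3.52 and 3.95 in tTA arrays. Every rTg4510 array exceeded every tTA array, and the difference was 1.85 (SE 0.27, adjusted p = 0.000715), with 0.59 in its other probe set. Efemp1, a fibulin of the extracellular matrix, was higher by 1.96 (SE 0.37), Adgrl4, an adhesion receptor of endothelium, by 2.04 (SE 0.25) and 1.05 in its other probe set, and Cav2, a caveolin, by 1.90 (SE 0.30) but -0.16 in its other probe set, which was not called. The lowest rTg4510 array was mouse4549 or mouse4600 for all 12 rises. Leaving out any 1 of the 10 arrays cost none of these 24 rises and falls its call, but they were picked as called, not overlapping and large. In the least significant difference test on anti-log values Rasd2 was not called (adjusted p = 0.0624).

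**Figure D4:**
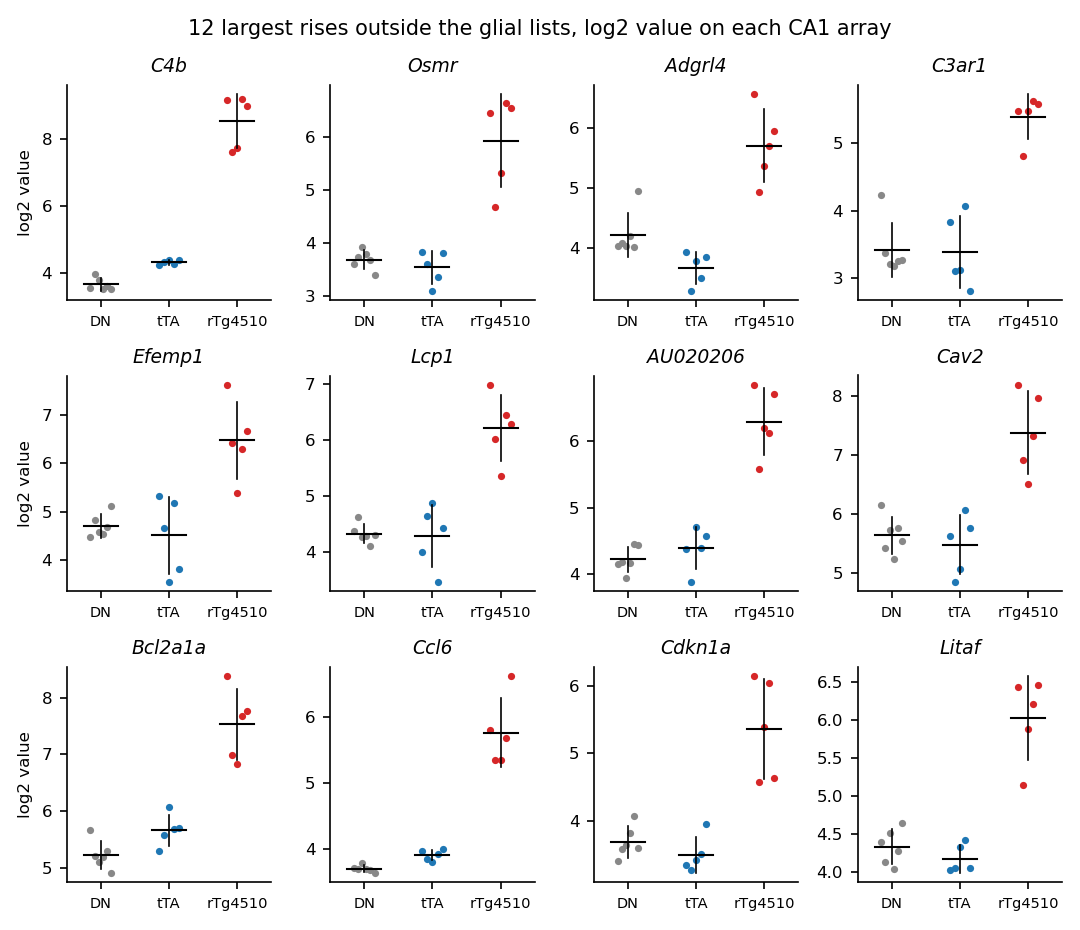
Log2 value on each CA1 array (vertical axis) by genotype (horizontal axis). Bars give mean ± SD over 6 DN, 5 tTA and 5 rTg4510 mice. Shown are the 12 largest rises among called genes outside the glial lists. Only genes with groups that do not overlap and a brighter group that is not dim were eligible. That the rTg4510 points lie above every tTA point in each panel follows from the choice of genes. Mouse4549 or mouse4600 is the lowest point of the rTg4510 group in all 12.

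Jun was higher while Arc, Egr1 and the Nr4a genes were lower. The 250 bases before the transcription start of each gene (RefSeq, GRCm38.p6) were therefore searched for letters patterned on the sites of AP-1, CREB and EGR proteins. The letters TGANTCA (AP-1), TGACGTCA (CRE) and GCGTGGGCG (EGR) were sought on both strands, and none of the 3 contains another. N stood for any base, so the AP-1 pattern was a loose one, and its matches were not counted by middle base. A window was at hand for 9425 of the 11807 named genes, of which 7.1% held the AP-1 letters, 2.5% the CRE and 1.05% the EGR letters. Among genes higher in rTg4510 with a window (593) these shares were 8.09%, 2.02% and 1.18%, and among lower genes (519) 4.05%, 1.93% and 1.35%. With at least 2-fold changes the AP-1 shares were 8.43% of 178 and 4.0% of 50. Of the 12 largest rises 10 had a window, and those of C3ar1, Efemp1, Cav2 and Bcl2a1a held the AP-1 letters. Of the 12 largest falls 7 had one, and 0 held any of the 3 motifs. A match describes the letters and not binding. The windows of the 3 largest rises that hold the AP-1 letters are shown 5′ to 3′ on the strand of the gene, up to the base before the start, with the AP-1 letters in capitals. They lie at chr6:122856158-122856407 on the minus strand (C3ar1, a complement receptor), chr11:28852955-28853204 on the plus strand (Efemp1) and chr6:17280935-17281184 on the plus strand (Cav2).
C3ar1: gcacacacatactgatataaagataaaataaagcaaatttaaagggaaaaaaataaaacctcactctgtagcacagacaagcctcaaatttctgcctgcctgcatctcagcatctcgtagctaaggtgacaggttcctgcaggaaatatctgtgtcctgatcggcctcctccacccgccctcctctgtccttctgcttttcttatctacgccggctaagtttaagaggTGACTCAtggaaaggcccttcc
Efemp1: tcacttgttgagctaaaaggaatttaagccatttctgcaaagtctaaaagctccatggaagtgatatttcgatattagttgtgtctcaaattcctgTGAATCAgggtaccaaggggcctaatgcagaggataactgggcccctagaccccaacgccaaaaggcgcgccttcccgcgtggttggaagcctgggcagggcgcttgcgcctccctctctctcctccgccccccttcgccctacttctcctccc
Cav2: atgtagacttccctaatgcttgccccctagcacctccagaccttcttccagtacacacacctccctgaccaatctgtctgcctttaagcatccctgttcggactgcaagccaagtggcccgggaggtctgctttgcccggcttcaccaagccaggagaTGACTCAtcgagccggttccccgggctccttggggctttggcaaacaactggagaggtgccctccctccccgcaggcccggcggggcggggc
The AP-1 letters begin at position -22 from the transcription start in C3ar1, -154 in Efemp1 and -92 in Cav2. They read TGACTCA in C3ar1 and Cav2 but TGAATCA in Efemp1.

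Secreted and matrix genes were higher in larger numbers. Of 53 genes of the extracellular matrix and its proteases 20 were higher (37.7%, against 6.23% of all named genes) and 0 lower in limma (28 and 0 at an unadjusted p below 0.05), with a median of 0.50. Bgn, the proteoglycan biglycan, read 8.29, 6.69, 6.63, 7.29 and 8.0 in rTg4510 and 5.78, 5.23, 5.80, 5.49 and 6.10 in tTA arrays. Its groups did not overlap, and it was higher by 1.70 (SE 0.28) and by 1.44 in its other probe set. Adamts1, a protease that cleaves matrix proteoglycans, was higher by 1.40 (SE 0.25). Reln, the guidance protein reelin of interneurons, was higher by 1.13 (SE 0.29), and Thbs4, an astrocyte thrombospondin that was dim in both groups, by 1.71 (SE 0.42). Both calls were lost without the DN arrays, in which fit 13 genes of the list were higher. Thbs4 read 6.48, 4.06, 3.38, 5.95 and 5.21 in rTg4510 arrays and at most 3.72 in tTA arrays, so that mouse4600 fell within the tTA range.

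Of 45 growth factors and receptors 14 were higher (31.1%, against 6.23% of all named genes) and 0 lower in limma (18 and 1 at an unadjusted p below 0.05). Osmr, the receptor of oncostatin M, read 6.45, 4.68, 5.31, 6.64 and 6.54 in rTg4510 and 3.83, 3.60, 3.09, 3.35 and 3.80 in tTA arrays, a difference of 2.39 (SE 0.30) from a dim level, and 0.89 in its other probe set. Lifr and Il6st, which form receptors of the same cytokine family, were higher by 0.79 (SE 0.15) and 0.65 (SE 0.15). Lifr stood at 7.24 ± 0.21 in rTg4510, 6.45 ± 0.34 in tTA and 7.43 ± 0.18 (SD, n = 6) in DN mice. Igfbp5, which binds insulin-like growth factors, read 9.47, 8.94, 7.52, 9.44 and 9.31 in rTg4510 and 6.52, 6.09, 7.72, 7.23 and 7.04 in tTA arrays. Mouse4600 overlapped the tTA group, and the difference was 2.02 (SE 0.45, adjusted p = 0.00916). Igf2 was higher by 1.67 (SE 0.25) and 0.59 in its other probe set. Of 58 genes of TGF-beta, BMP and Wnt signaling 10 were higher (17.2%) and 3 lower (5.17%, near the 5.4% of all named genes), and without the DN arrays 5 were higher. Tgfbr2, a receptor of TGF-beta, was higher by 1.63 (SE 0.24) and stood at 0.03 and -0.10 in its other probe sets. Wnt5a, a ligand of the noncanonical Wnt route, read 6.94, 5.82, 6.38, 7.28 and 6.82 in rTg4510 and 5.34, 5.46, 5.18, 4.79 and 5.05 in tTA arrays, with no overlap. It was higher by 1.49 (SE 0.24) and by 1.41 in its other probe set. Dkk3, a Dickkopf relative of neurons, fell by 0.66 (SE 0.14).

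Actin regulators were higher in 10 and lower in 5 of 51 (19.6% and 9.8%, against 6.23% and 5.4% of all named genes). Genes of cell death, p53 and DNA damage were higher in 8 and lower in 2 of 48 (16.7% and 4.17%). Msn, a linker of actin to the membrane, was higher by 1.51 (SE 0.29), and Add2, the neuronal adducin, fell by 0.83 (SE 0.14) while its sister Add3 was higher by 0.83 (SE 0.14). The lower actin genes numbered 10 without rTg4510 mouse4600, 3 without mouse4666, 9 with the replicate block and 2 without the DN arrays. Beside Cdkn1a, Gadd45a, a gene induced by DNA damage that was dim in both groups, was higher by 1.04 (SE 0.15) and the cyclin gene Ccnd2 by 1.12 (SE 0.25). For Ccnd2 the rTg4510 arrays read 7.56, 7.29, 7.65, 7.83 and 7.77, the tTA arrays 7.42, 7.14, 5.83, 5.74 and 6.37 and DN mice 7.53 ± 0.10 (SD, n = 6). Its rTg4510 values lay close together while tTA mouse4570 reached into their range, and the call was lost without the DN arrays, when 4 genes of the list were higher.

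Of the remaining lists, some were called less and some more often than all named genes (11.6%). Axon guidance genes were called in 9.3% of 54 (1 higher, 4 lower), with Sema3c, an attractive semaphorin, higher by 1.23 (SE 0.21) and the ephrin receptor gene Epha6 at -0.80 (SE 0.18). The lower count was 2 without rTg4510 mouse4666, 8 with the replicate block and 1 without the DN arrays, which Epha6 needed for its call. Cadherins and protocadherins were called in 7.7% of 26, both Cdh20 (1.06, SE 0.27, not called without the DN arrays) and Cdh2 higher. Glycolysis and TCA cycle genes were called in 9.1% of 44, 2 in each direction. Examples were the hexokinase gene Hk2 (0.81, SE 0.17) and the succinate dehydrogenase gene Sdhc (-0.53, SE 0.14, not called without the DN arrays). Leaving out 1 array gave 1 to 4 higher and 1 to 2 lower. RNA-binding and splicing genes were called in 16.7% of 42, 4 higher and 3 lower, with 7 lower without rTg4510 mouse4600 and 5 with the replicate block. Cyclic nucleotide genes were called in 17.2% of 29, 1 higher and 4 lower, but at most 2 were lower when tTA mouse4570, mouse4580, mouse4626 or mouse4637 was left out, or any of the rTg4510 arrays of mouse4535, mouse4653 and mouse4666, and without the DN arrays 0 in limma. For 1 of them, the phosphodiesterase gene Pde2a (-0.78, adjusted p = 0.0251), 4 of these fits lost the call (0.0557 without rTg4510 mouse4653, 0.0632 without mouse4666, 0.0566 without tTA mouse4580, 0.0614 without mouse4626).

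Of the 5 genes tied to the transgenes, Fgf14 and Camk2a were lower. Mapping of these lines has placed the tau responder within Fgf14, which encodes a modulator of sodium channels, and Camk2a gives tTA its promoter. Fgf14 read 7.58, 7.99, 7.81, 7.74 and 7.17 in rTg4510 and 8.52, 8.21, 8.41, 8.29 and 8.25 in tTA arrays, with DN mice at 8.67 ± 0.07 (SD, n = 6). The groups did not overlap, and the difference was -0.68 (SE 0.12, adjusted p = 0.00252) and -0.96 in the other probe set. Camk2a was at -0.53 (SE 0.14, adjusted p = 0.0256), which did not pass when rTg4510 mouse4535 (0.0662), mouse4653 (0.0622) or mouse4666 (0.0664), tTA mouse4626 (0.0666) or the DN arrays were left out. The mouse Mapt gene, which encodes tau itself, read 6.67, 6.11, 6.71, 6.65 and 6.46 in rTg4510 and 6.64, 6.50, 6.39, 6.18 and 6.06 in tTA arrays, with overlap (difference 0.17, SE 0.14, limma adjusted p = 0.492), and the human transgene was not analysed here. Ncapg2 (-0.21) and Vipr2 (-0.14), from the region of the tTA insertion, were dim and not called.

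**Figure D5:**
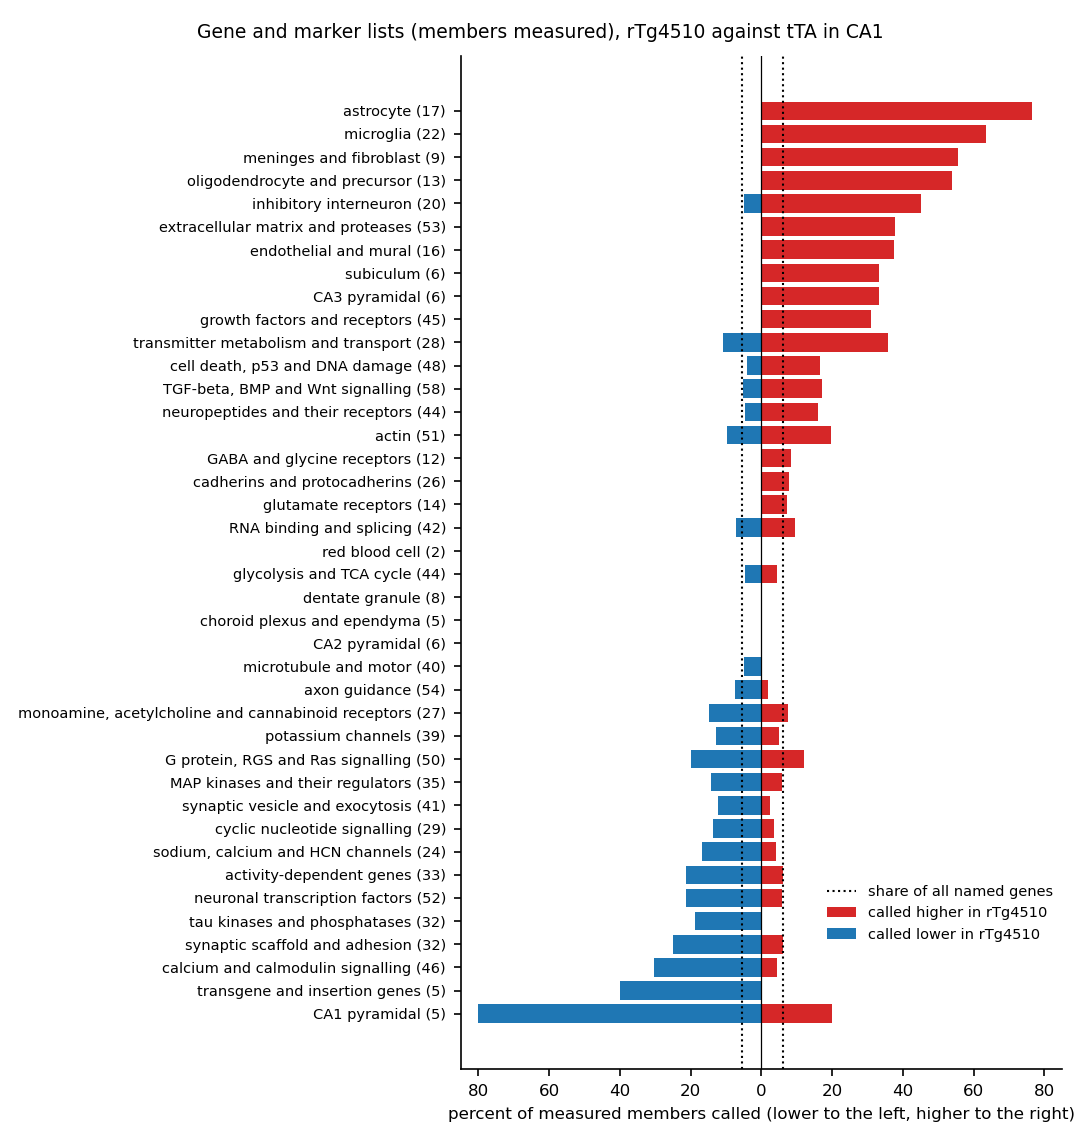
Percent of the measured members of each gene or marker list (number measured in brackets) that were called lower (left) or higher (right) in rTg4510, with dotted lines at the shares of all named genes, 5.4% and 6.23%. Glial, meningeal, interneuron and matrix lists reach furthest to the right, and the CA1 pyramidal, transgene, calcium and scaffold lists furthest to the left.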

How the data were processed

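The authors deposited log2 expression values made with RMA, the method the submitters' processing notes name, from 1 Affymetrix HT-MG-430A array per capture. RMA puts all arrays on a common distribution, so a shift of all transcripts together is lost and the differences of dim probe sets come out too small. The set of arrays normalized as 1 batch is not stated in the sources. The series matrix table gave 1 column for each sample, and all values were used as deposited. The precision is limited by the number of arrays, which carry no read counts. The replicate is the mouse, numbered in the sample titles, and since a mouse gave at most 1 CA1 array the genotypes compared are not paired: 5 rTg4510, 5 tTA and 6 DN.

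After removal of 90 control probe sets, 22626 were tested with limma (version 3.58.1, under R 4.3.3) on the 16 CA1 arrays, with 1 mean per genotype and the spread pooled over the 3 genotypes, after the study's one-way design. P-values were adjusted over all tested probe sets by the Benjamini-Hochberg procedure. The fit was tested on simulated data in which each probe set had the same spread in all 3 genotypes. That test could not show what the tighter DN arrays do to the calls. Of the probe sets 18003 had 1 symbol, 287 several and 4336 none in the probe table. A gene stands for its probe set with the highest mean over all 49 arrays, and others are given for some genes only. Among those not given elsewhere, differences were smaller for Kcnip2 (-0.07), Cdk5 (-0.18) and Htr1a (-0.36). They were larger for Prkcb (-1.21), Dapk1 (-1.11) and Rgs4 (1.34 and 1.14).

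The comparison, the 27 gene lists and the 13 marker lists were chosen with earlier results of these data known. Lists held 1380 symbols, of which 1090 were measured. Genes were named as the 12 largest rises and 12 largest falls among called genes whose groups did not overlap, whose brighter group was not dim and that were in no non-neuronal marker list, then up to 4 called members per list, the genes tied to the transgenes and the CA1 markers. Of 143 genes so described, 102 fall under this rule, and the other 41 were chosen after their values were seen. The alternatives were another quantile normalization, median centring, fewer or more arrays in the fit, removal of dim probe sets, a trended robust prior, array weights, the least significant difference test of the study's methods on log2 and anti-log values, an Actb covariate and leaving out each array.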

Additional observations from a re-analysis of the deposited data

Results flagged for a closer look

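Over the named genes, 429 groups of 5 or 6 CA1 arrays were examined, and in 17 of them 1 array stood apart, by a gap to its nearest neighbour that made up more of the group's range than Dixon's critical value (0.71 for 5 arrays, 0.625 for 6). Chance alone marks about 1 group in 20. The shares of the range are given after each value.

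Among tTA arrays, mouse4570 was the lowest for Sema3a (4.99 against 6.05 in its neighbour, 0.715) and Camk2b (9.54 against 9.85, 0.767) and the highest for Dusp26 (7.82 against 7.31, 0.777). Mouse4592 was the highest tTA array for Nr4a1 (7.27 against 6.82, 0.726), and mouse4626 the lowest for Dlx1 (4.94 against 5.71, 0.819), a transcription factor gene of interneurons.

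Among rTg4510 arrays, mouse4549 was the lowest for C3ar1 (4.82 against 5.48, 0.813) and Nxph1 (6.62 against 7.68, 0.832), which encodes a neurexin ligand. Mouse4535 was the highest for Rasd2 (4.63 against 3.76, 0.749) and the lowest for Camkv (7.18 against 8.11, 0.762), and mouse4600 was the lowest for Igfbp5 (7.52 against 8.94, 0.729).

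Among DN arrays, mouse4797 was the highest for C3ar1 (4.23 against 3.37, 0.818) and the lowest for Rasgrf2 (3.95 against 4.68, 0.695) and Cacna2d2 (7.80 against 8.34, 0.652). Mouse4886 was the highest for Adgrl4 (4.95 against 4.20, 0.802) and mouse4806 for Wfs1 (12.30 against 12.21, 0.658). Mouse4883 was the lowest for Rgs7 (7.0 against 7.40, 0.645) and Doc2b (7.12 against 7.42, 0.626).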

How the results depend on the processing

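The fit without the DN arrays moved the counts most. Without the DN arrays 648 probe sets were higher and 408 lower, and with the Actb 3-prime to 5-prime value as a covariate 753 and 560, against 1360 and 1045. Leaving out 1 array gave 977 to 1531 higher and 701 to 1188 lower, the fewest without rTg4510 mouse4666. The array weights gave 1134 and 799, and the least significant difference test 1071 and 856 on log2 and 1012 and 726 on anti-log values. Rises made up 56.5% of the calls, 53.4% after another quantile normalization and 46.9% with arrays centred on their medians (1197 higher, 1353 lower), when the median difference over all probe sets was -0.03, -0.03 and -0.07. In the fit of all 49 arrays with the mouse as a replicate block, 1629 were higher and 1388 lower. Of 139 called genes given with values, the block ended the calls of Prkcz, Kcnab2, Cdk5 and Map6 and no other.

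Of these 139 genes 119 were called without any 1 of the 10 arrays. The Actb covariate ended 37 calls: Itpkb, Prkcb, Camk2a, Prkcz, Ppp3r1, Rcan1, Rap2a, Rasgrf2, Rgs4, Rgs10, Kcnab1, Kcnh7, Kcnip2, Kcnip4, Kcnab2, Cacnb1, Cacna1h, Cacna2d2, Htr1f, Htr1a, Htr1b, Cnr1, Gria4, Pde2a, Rora, Nr4a1, Pnoc, Vip, Dlx1, Cdk5, Cdk5r1, Thbs4, Reln, Il6st, Epha6, Map6 and Map4. The fit without DN arrays ended 42, the least significant difference test 13 (log2) and 28 (anti-log), array weights 8 and the trended prior 2. The scaling alternatives and the filter on dim probe sets ended 0. Calls ended by the anti-log test included those of Rasd2 (adjusted p = 0.0624), Doc2b (0.242), Htr1a (0.22) and Kcnab1 (0.0516). No alternative turned the sign of a called gene (0 of 2775 comparisons). The fit without DN arrays, the dim filter, the trended prior and the log2 least significant difference test leave the difference itself unchanged, so none could turn it. The other alternatives reuse most of the same arrays, and these genes were picked as called, so a turn was unlikely from the start. The medians of lists moved by more than their spread in 19 comparisons, 13 of which left out dim probe sets, and by less in 701. With the Actb covariate the calcium list had 6 lower genes, the transcription factors 6, the growth factors 9 higher, TGF-beta, BMP and Wnt signaling and transmitter metabolism 6 each, the interneuron markers 4 and the G protein list 2. Where a list had 1 or 2 calls in a direction, leaving out 1 array often changed that count. The Actb difference ran from 0.167 to 0.278 without 1 array.

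Of the 143 genes given with values 36 had a dim group, whose differences are understated. Some genes had more than 1 promoter window (Lypd1 had 3), and a gene counted as holding a motif if any of its windows did.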

Other observations

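Of the 20 measured genes nearest to Fgf14 in the RefSeq gene order, chosen after values were seen, 1 was higher and 3 were lower in rTg4510 than in tTA mice, 20% against 11.6% of all named genes. Hs6st3, an enzyme that adds sulfate to heparan chains, was at 4.80 in rTg4510, 5.77 in tTA and 6.74 in DN mice, a difference of -0.97 (SE 0.20, limma adjusted p = 0.00626) from tTA. Rap2a, a small G protein of the Ras family, was at -0.36 (SE 0.09, adjusted p = 0.0158), and Ubac2 at -0.72 (SE 0.21, adjusted p = 0.0368), while the other probe set of Rap2a gave -0.06 and that of Ubac2 -0.07. Cldn10, a claudin gene, was higher by 0.76 (SE 0.20, adjusted p = 0.0204). Rap2a, Ubac2 and Cldn10 were not called without the DN arrays. Ubac2 lost its call without rTg4510 mouse4535 (0.0846), mouse4549 (0.076) or mouse4600 (0.066) or tTA mouse4570 (0.057), mouse4580 (0.0727) or mouse4592 (0.0819), and Cldn10 without rTg4510 mouse4535 (0.0543) or mouse4666 (0.0582) or tTA mouse4580 (0.0531). The nearest gene in that order, Itgbl1, was at -0.19 (SE 0.12, adjusted p = 0.351).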
